A study of Mus musculus with 14 samples.

Results

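Integrins are the adhesion receptors by which macrophages hold on to matrix, to other cells and to opsonised particles, and the transcripts of 10 of their subunits were followed in mouse bone marrow-derived macrophages given mast cell products. The 10 were listed by gene symbol: Itgb3, Itgav, Itgb5, Itgb1, Itgb2, Itgam, Itgal, Itga4, Itga5 and Itga6. All 10 were found by Ensembl identifier among the 47937 genes of the count table, and all 10 were among the 13061 genes that passed the filter on low counts. They were chosen by family, with earlier log2 differences of these libraries against untreated cells known, chiefly the lower Itgb3 with either supernatant. Their values against untreated cells are therefore a description and carry no p.

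The macrophages were wild type in every group, and polyadenylated RNA was sequenced from 14 libraries. There were 6 untreated libraries, 5 after mast cell supernatant and 3 after the supernatant of mast cell intracellular traps (trap supernatant below), each applied for 3.5 h. The labels name 3 batches. Each batch held 2 untreated libraries and 1 trap supernatant library, and mast cell supernatant had 2 libraries in batch 1, 1 in batch 2 and 2 in batch 3. The labels give no medium control, age or strain. They do not tie the libraries to cultures or to mice, and each p therefore measures the spread between these libraries alone, which may be technical. Total counts were 11729073 to 22720419 per library. Levels are CPM, counts per 1000000 counts of a library after TMM scaling, and differences are on the log2 scale with their standard error (SE), from 1 model with group and batch as terms. In bulk RNA such as this, fewer cells of a type and less RNA per cell cannot be told apart.

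An integrin is a pair of an α and a β chain, and the pairing sets the ligand. The αv chain joins β3 or β5 to bind vitronectin and other proteins with an RGD motif, the β1 chain joins α4, α5 or α6 to bind VCAM-1 and fibronectin, fibronectin alone or laminin, and the leukocyte chain β2 joins αM or αL to bind complement fragments and ICAM-1. Binding is switched on from inside the cell by talin and kindlin at the β tail, so transcript levels set how much receptor can be made and not its activity.

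Markers of the labelled cell type were high. Csf1r, the receptor for M-CSF, stood at 2493 ± 404 CPM (SD, n = 6) in untreated libraries, and the macrophage genes Adgre1 and Cd68 at 1867 ± 228 and 2289 ± 398 CPM. Mast cell transcripts came with the supernatants: the summed level of 22 mast cell markers was 191 to 210 CPM in untreated libraries, 271 to 1744 CPM with mast cell supernatant and 284 to 2416 CPM with trap supernatant, and 7 of the 22 (Mcpt4, Tpsb2, Tpsab1, Mrgprb1, Mrgprb2, Tpsg1 and Gzmb) had no count in any untreated library. Batch 2 stood apart in a list of 9 stromal and endothelial markers, with summed levels of 77.7 to 86.7 CPM in its untreated libraries against 10.2 to 16.6 CPM in those of batches 1 and 3. The first principal component of all libraries held 34.0% of the variance, of which 97.8% lay between batches and 1.34% between groups. The second held 22.0%, of which 48.0% lay between batches and 39.6% between groups.

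Promoter sequences from RefSeq (GRCm38.p6) were at hand for 6 of the 10 genes: Itgav, Itgb5, Itgb1, Itgam, Itga4 and Itga5. The 250 bases before the start are shown for 4 of them, since they cover both directions of the differences between batches described below (Itga5 and Itgav were higher in untreated batch 2, Itgb5 and Itgam lower) and 3 of the genes with lower levels after supernatant. They lie at chr15:103366792-103367041 on the minus strand for Itga5, chr2:83724147-83724396 on the plus strand for Itgav, chr16:33829415-33829664 on the plus strand for Itgb5 and chr7:128062390-128062639 on the plus strand for Itgam. Capitals mark matches, on either strand, to the GC box GGGCGG, bound by Sp1, and to GAGGAA, the core bound by the myeloid factor PU.1.
Itga5: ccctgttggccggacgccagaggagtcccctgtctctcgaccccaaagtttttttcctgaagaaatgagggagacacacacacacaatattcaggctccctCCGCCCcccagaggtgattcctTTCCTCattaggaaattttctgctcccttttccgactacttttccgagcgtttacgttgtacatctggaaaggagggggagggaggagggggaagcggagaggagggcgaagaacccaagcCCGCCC
Itgav: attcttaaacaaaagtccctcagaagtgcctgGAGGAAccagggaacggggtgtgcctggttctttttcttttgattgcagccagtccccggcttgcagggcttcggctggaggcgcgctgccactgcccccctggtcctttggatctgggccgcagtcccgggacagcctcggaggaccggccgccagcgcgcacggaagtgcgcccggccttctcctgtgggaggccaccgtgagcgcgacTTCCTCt
Itgb5: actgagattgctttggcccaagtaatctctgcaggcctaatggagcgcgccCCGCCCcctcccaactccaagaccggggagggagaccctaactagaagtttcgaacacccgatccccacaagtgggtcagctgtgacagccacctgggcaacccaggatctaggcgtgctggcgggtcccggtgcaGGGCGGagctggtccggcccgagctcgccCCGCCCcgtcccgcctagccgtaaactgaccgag
Itgam: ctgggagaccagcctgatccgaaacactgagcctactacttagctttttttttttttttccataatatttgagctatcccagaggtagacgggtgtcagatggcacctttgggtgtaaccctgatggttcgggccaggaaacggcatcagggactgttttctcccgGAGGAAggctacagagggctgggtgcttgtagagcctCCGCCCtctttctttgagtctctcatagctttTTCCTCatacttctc

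The GC box matched 3 times before Itgb5, 2 times before Itga5, 1 time before Itgam and not before Itgav, while 32.7% of the 32851 promoters in the table held it. The PU.1 core matched 2 times before Itgav and before Itgam, 1 time before Itga5 and not before Itgb5, against 23.2% of all promoters with a match. Neither TATAAA nor the AP-1 motif TGANTCA matched in any of the 6 (12.4% and 6.75% of all promoters). The Itgam window was the poorest of the 6 in G and C, at 49.6%, and the other 5 ran from 55.6% before Itga5 to 68.0% before Itgb1, around and above a median of 52.4% over all promoters. The motif matches are descriptions of these letters, and no binding was measured.

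In untreated macrophages the subunits spanned a wide range of levels. Per kilobase of exon, Itgb2 led with 523 CPM per kb (407 to 612 over 6 libraries). Itga5 at 161 and Itgb1 at 153 CPM per kb followed, with ranges that overlapped. Itgb5 stood at 85.1 CPM per kb, then Itgam at 54.6 and Itgav at 53.2, which overlapped, then Itga6 at 24.5, Itga4 at 16.0 and Itgal at 9.05. Before division by length, Itga6 (9025 bases) and Itga4 (13978 bases) had untreated means of 221 and 224 CPM. Itgb3 was lowest at 2.21 CPM per kb (1.40 to 2.67). Apart from Itga5 with Itgb1 and Itgam with Itgav, neighbours in this order did not overlap in any untreated library. Of the β chains that join αv, Itgb3 thus stood at 2.57 ± 0.58 (SD, n = 6) per 100 of Itgb5 by level per length.

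**Figure D1:**
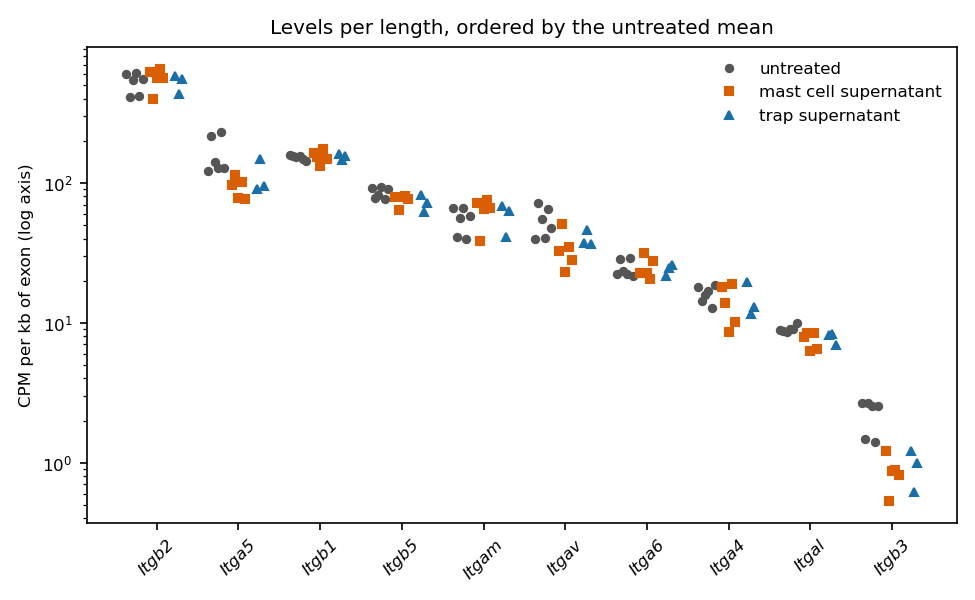
CPM per kb of exon (log axis) of the 10 integrin subunits in each of the 14 libraries, ordered by the mean of the 6 untreated libraries; circles are untreated, squares mast cell supernatant and triangles trap supernatant. Itgb2 is highest (untreated mean 523) and Itgb3 lowest (2.21), and Itgb3 is the gene whose supernatant libraries lie farthest below its untreated ones.

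Against untreated cells, 4 of the 10 subunits passed the false discovery rate of 0.05 with mast cell supernatant, all lower (Itgb3, Itga5, Itgav and Itgb5), and 3 with trap supernatant, all lower (Itgb3, Itga5 and Itgb5). Over all 13061 genes, 4.79% passed with mast cell supernatant and 1.72% with trap supernatant; the lower ones made up 2.62% and 0.796%. As the list was drawn up with these contrasts known, the counts are given beside this background and nothing is read from them. The median log2 difference of the 10 was -0.23 with mast cell and -0.19 with trap supernatant, against -0.01 and -0.01 over all genes. Both comparisons share the same 6 untreated libraries. In 5 of the 10, namely Itgb3, Itgav, Itgb5, Itgal and Itga5, each of the 8 supernatant libraries lay below both untreated libraries of its batch, as did 2.73% of all genes. Without batch 2, which stood apart, 2 subunits passed with mast cell and 1 with trap supernatant, and in the fit with the replicate block 2 and 1 did.

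**Figure D2:**
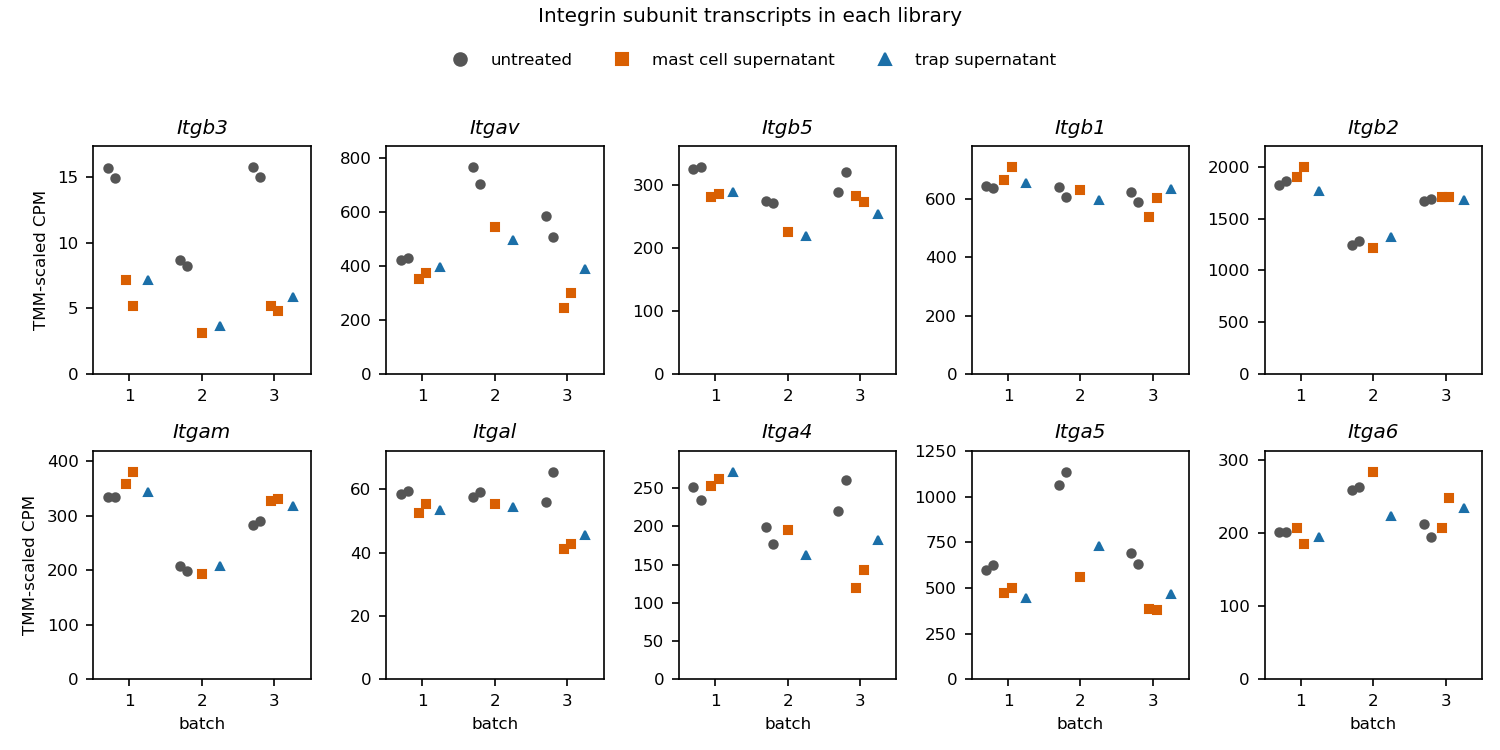
TMM-scaled CPM (linear axes from 0) of each integrin subunit by batch; each point is 1 library, circles untreated, squares mast cell supernatant and triangles trap supernatant. Itgb3 supernatant libraries (3.14 to 7.19 CPM) lie below all untreated ones (8.24 to 15.8 CPM), and the Itga4 supernatant libraries lie below both untreated ones of batch 3.

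Itgb3, the β3 chain of the vitronectin receptor αvβ3 and of the platelet fibrinogen receptor (chromosome 11, 104608000 to 104670476, plus strand, GRCm38), changed most among the 10. Its untreated libraries stood at 15.7, 8.71, 15.8, 14.9, 8.24 and 15.0 CPM (replicates 1 to 6, batches 1, 2, 3, 1, 2 and 3). With mast cell supernatant they stood at 7.17, 3.14, 5.18, 5.20 and 4.81 CPM (batches 1, 2, 3, 1 and 3), and with trap supernatant at 7.19, 3.63 and 5.88 CPM (batches 1, 2 and 3). No supernatant library reached the lowest untreated one, although the untreated libraries of batch 2 were themselves lower than the rest. The log2 level fell by 1.45 ± 0.10 (SE) with mast cell supernatant, 63.3% lower, and by 1.23 ± 0.12 with trap supernatant, 57.3% lower. Within batches 1, 2 and 3 the log2 difference of mean levels was -1.31, -1.41 and -1.61 with mast cell supernatant and -1.08, -1.20 and -1.37 with trap supernatant. These levels rest on 55 to 329 counts per library, the fewest of the 10 genes.

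Itgav, the αv chain that β3 and β5 share (chromosome 2, 83724397 to 83806916, plus strand, with the promoter printed above), was abundant. Untreated libraries held 425, 769, 588, 432, 704 and 508 CPM in replicates 1 to 6. Those with mast cell supernatant held 352, 545, 246, 374 and 303 CPM and those with trap supernatant 399, 496 and 392 CPM. Every supernatant library was below the untreated ones of its batch, but the groups overlapped across batches, since the supernatant libraries of batch 2 exceeded the untreated ones of batch 1. With mast cell supernatant Itgav fell by 0.58 ± 0.12, a call that was lost without untreated replicate 6 (-0.57) and without mast cell supernatant replicate 5 (-0.55) and in the fit of replicates 1 to 3 with the replicate number as a block (-0.67 ± 0.21). The call was also lost without batch 2 (-0.61), with no filter on low counts (-0.57) and with no batch term (-0.65). With trap supernatant its difference of -0.39 ± 0.14 did not pass. The within-batch values with mast cell supernatant were -0.24, -0.43 and -1.003 in batches 1, 2 and 3, and those with trap supernatant -0.10, -0.57 and -0.48.

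Itgb5, whose product forms αvβ5, a receptor for vitronectin that macrophages also use in the uptake of dying cells (chromosome 16, 33829665 to 33949338, plus strand), moved little. It stood at 326, 275, 290, 330, 272 and 321 CPM untreated. With mast cell supernatant it stood at 282, 226, 283, 287 and 274 CPM, and with trap supernatant at 290, 220 and 254 CPM. All 8 supernatant libraries were below their batch's untreated pair, by a narrow margin in batch 3. The fall was 0.20 ± 0.04 on the log2 scale with mast cell supernatant (12.7% lower) and 0.25 ± 0.05 with trap supernatant (16.0% lower). The first call was lost without mast cell supernatant replicate 1 (-0.19) or 2 (-0.18), the second without untreated replicate 2 (-0.24) or trap supernatant replicate 2 (-0.23) or 3 (-0.23), and both with the replicate block (-0.18 ± 0.07 and -0.23 ± 0.07). Both were also lost without batch 1 (-0.17 and -0.28), without batch 2 (-0.16 and -0.21) and with no batch term (-0.16 and -0.25). Since Itgb3 was lower by more than Itgb5, the ratio of Itgb3 to 100 Itgb5 per length was 1.12 ± 0.25 (SD, n = 5) with mast cell supernatant and 1.29 ± 0.26 (n = 3) with trap supernatant, below the untreated libraries in every batch (1.82 to 3.28 untreated, 0.837 to 1.53 with either supernatant).

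**Figure D3:**
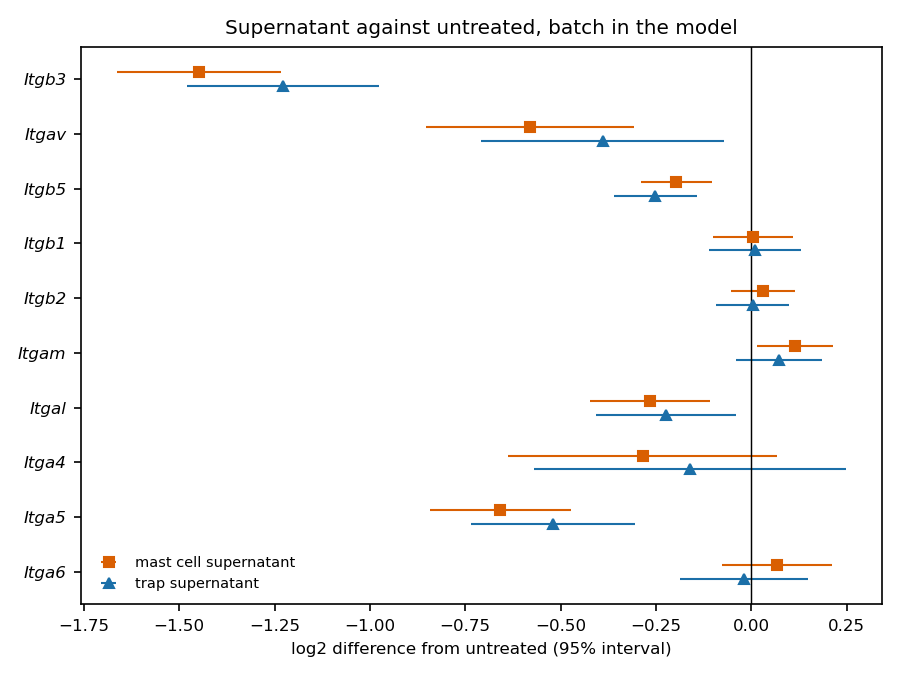
Log2 difference from untreated (horizontal axis) with its 95% interval for each of the 10 subunits, squares for mast cell supernatant and triangles for trap supernatant, from the model with group and batch. Itgb3 lies farthest from 0 (-1.45 and -1.23), followed by Itga5 (-0.66 and -0.52), and Itgb1 and Itgb2 sit at 0.

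Itga5, the α5 chain of the fibronectin receptor α5β1 (chromosome 15, 103344286 to 103366763, minus strand), was the second of the 10 by size of difference. Untreated libraries held 600.0, 1063, 694, 625, 1139 and 632 CPM. Mast cell supernatant libraries held 475, 560, 385, 501 and 380 CPM and trap supernatant libraries 444, 731 and 469 CPM. Within each batch no supernatant library reached the untreated pair, and the trap library of batch 2 exceeded the untreated libraries of batches 1 and 3. Itga5 fell by 0.66 ± 0.09 with mast cell supernatant (36.6% lower) and by 0.52 ± 0.10 with trap supernatant (30.3% lower). The trap call was lost without trap supernatant replicate 1 (-0.46), 2 (-0.53) or 3 (-0.57) and with the replicate block (-0.52 ± 0.11). It was also lost without batch 2 (-0.48) or 3 (-0.52). With no batch term both calls were lost (-0.78 with mast cell and -0.53 with trap supernatant). The within-batch differences were -0.33, -0.97 and -0.79 with mast cell and -0.46, -0.59 and -0.50 with trap supernatant.

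Itgb1, the β1 partner of α4, α5 and α6 (chromosome 8, 128685654 to 128733200, plus strand), showed no such difference. It ranged from 589 to 643 CPM in untreated libraries, from 538 to 709 CPM with mast cell supernatant and from 594 to 654 CPM with trap supernatant. The log2 differences were 0.01 ± 0.05 and 0.01 ± 0.06, with 95% intervals of -0.10 to 0.11 and -0.11 to 0.13. The ratio of Itga5 to 100 Itgb1 per length was 106 ± 32.9 (SD, n = 6) untreated, 60.6 ± 7.94 (n = 5) with mast cell supernatant and 73.1 ± 25.0 (n = 3) with trap supernatant. These means and SDs pool the batches. In batches 1, 2 and 3 the mean ratio was 79.2, 147 and 90.4 untreated. It was 58.8, 73.8 and 55.7 with mast cell supernatant and 56.1, 102 and 61.3 with trap supernatant.

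Itga4, the α4 chain that pairs with β1 or β7 to bind VCAM-1 (chromosome 2, 79255426 to 79333123, plus strand), was lower with supernatant in batch 3 and showed no clear difference in batches 1 and 2. In batch 1 it stood at 252 and 235 CPM untreated, 253 and 263 CPM with mast cell supernatant and 272 CPM with trap supernatant. Batch 2 gave 199 and 177 CPM untreated against 195 CPM with mast cell and 163 CPM with trap supernatant. Batch 3 gave 221 and 261 CPM untreated against 119 and 142 CPM with mast cell and 182 CPM with trap supernatant. Only in batch 3 did every supernatant library lie below the untreated pair, and over all batches the differences of -0.28 ± 0.16 and -0.16 ± 0.18 did not pass.

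Itga6, the α6 chain of laminin receptors (chromosome 2, 71745616 to 71858416, plus strand), ranged from 194 to 262 CPM untreated, 185 to 284 CPM with mast cell supernatant and 194 to 234 CPM with trap supernatant. These ranges overlapped, and the log2 differences were 0.07 ± 0.07 and -0.02 ± 0.08.

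Among the leukocyte integrins, Itgb2, the common β2 chain (chromosome 10, 77530252 to 77565708, plus strand), had the highest level per length of the 10 in every library. It ran from 1244 to 1866 CPM untreated, from 1219 to 1999 CPM with mast cell supernatant and from 1324 to 1769 CPM with trap supernatant. Its log2 differences of 0.03 ± 0.04 and 0.00 ± 0.05 had 95% intervals of -0.05 to 0.12 and -0.09 to 0.10. Itgam, the αM chain of the iC3b receptor Mac-1, also known as CD11b (chromosome 7, 128062640 to 128118491, plus strand), stood at 334, 207, 283, 334, 198 and 290.0 CPM untreated. It stood at 358, 194, 327, 381 and 331 CPM with mast cell supernatant and at 344, 207 and 317 CPM with trap supernatant. In batches 1 and 3 the supernatant libraries were the higher ones and in batch 2 they were level with the untreated pair. Neither difference passed (0.11 ± 0.05 and 0.07 ± 0.05). Without mast cell supernatant replicate 2 the first became 0.17 and passed.

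Itgal, the αL chain of LFA-1 (chromosome 7, 127296260 to 127335138, plus strand), stood at 58.7, 57.7, 56.0, 59.5, 59.2 and 65.7 CPM untreated. With mast cell supernatant it stood at 52.4, 55.3, 41.0, 55.5 and 42.6 CPM, and with trap supernatant at 53.5, 54.4 and 45.5 CPM. All 8 supernatant libraries lay below their untreated pair and below every untreated library, most clearly in batch 3. Its differences of -0.27 ± 0.07 and -0.22 ± 0.09 did not pass in the model of all libraries. Without mast cell supernatant replicate 2 (-0.31) or 4 (-0.30) the first passed. Itgb3 and Itgal were the 2 subunits with every supernatant library below every untreated one, a pattern seen in 0.613% of all genes. Per 100 of Itgb2, Itgam stood at 10.4 ± 0.60 (SD, n = 6) untreated, 11.2 ± 0.88 (n = 5) with mast cell supernatant and 10.9 ± 1.25 (n = 3) with trap supernatant.

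**Figure D4:**
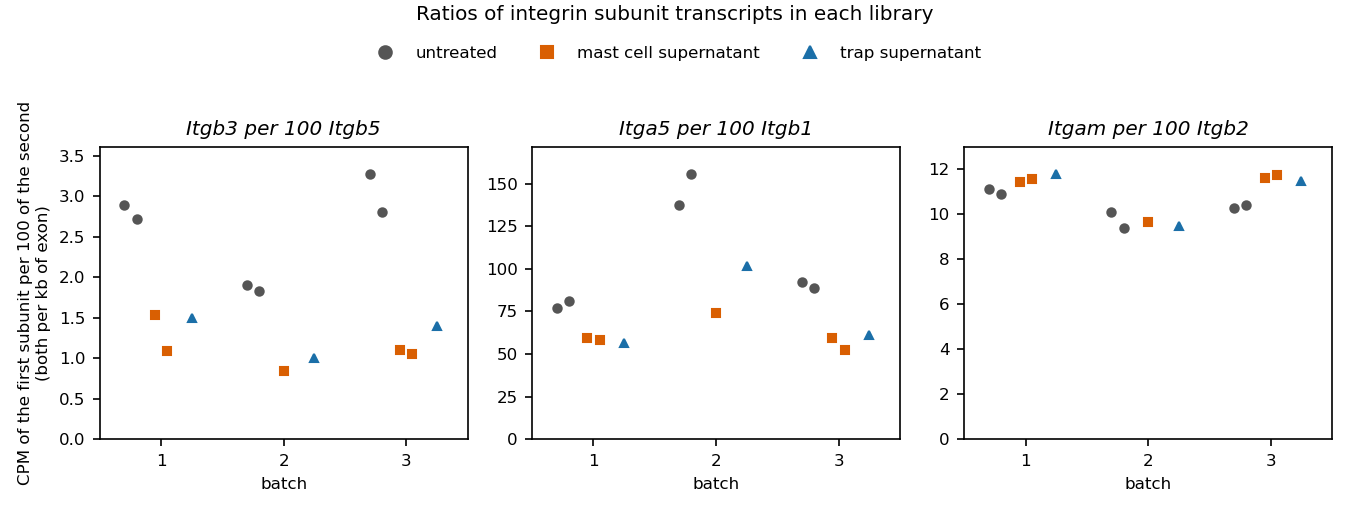
Ratio of the levels per length of 2 subunits in each library by batch: Itgb3 per 100 Itgb5, Itga5 per 100 Itgb1 and Itgam per 100 Itgb2; circles are untreated, squares mast cell supernatant and triangles trap supernatant. The first 2 ratios are lower with either supernatant in each batch, and Itgam per 100 Itgb2 stays between 9.41 and 11.8 in all libraries.

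The supernatant of traps and that of mast cells were compared directly, a contrast that played no part in the choice of genes. None of the 10 subunits passed (edgeR's quasi-likelihood test, adjusted p = 1 for each), and of all 13061 genes 0% passed, with 569 at an unadjusted p under 0.05; DESeq2 called 11 genes and limma-voom 0. Itgb3 differed by 0.22 ± 0.13, with a 95% interval of -0.05 to 0.49, and was higher in the trap library than in the mean of the mast cell libraries in each batch. For Itgav the difference was 0.19 ± 0.15 (-0.13 to 0.51), for Itga5 0.14 ± 0.10 (-0.08 to 0.36) and for Itga4 0.12 ± 0.19 (-0.30 to 0.54). The intervals of Itgb5 (-0.17 to 0.06), Itgb1 (-0.12 to 0.13), Itgb2 (-0.13 to 0.07) and Itgam (-0.16 to 0.08) were narrower. These intervals leave room for differences of those sizes, with 3 trap libraries.

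Whether the response to any supernatant differed between batches was tested jointly over the 3 batches. No subunit passed, while 5.36% of all genes did; Itga4 and Itgal came nearest (edgeR's quasi-likelihood test, adjusted p = 0.0653 and 0.0726), followed by Itgav (adjusted p = 0.251), and Itgb3 gave 0.665. Contrasts of 2 batches were added after the values were seen, so their p-values are not independent evidence. The supernatant difference of Itga4 was 0.11 ± 0.14 in batch 1 and -0.71 ± 0.14 in batch 3, a change of -0.82 ± 0.20 (adjusted p = 0.0263). Its changes from batch 1 to 2 (-0.18 ± 0.21) and from batch 2 to 3 (-0.64 ± 0.21) did not pass (0.847 and 0.393). Itgal gave -0.14 ± 0.08 in batch 1 and -0.50 ± 0.08 in batch 3, a change of -0.36 ± 0.11 (adjusted p = 0.0587). The joint test passed for Itga4 with DESeq2 (adjusted p = 0.0012) and limma-voom (0.0267) and without trap supernatant replicate 2 (0.0477) or 3 (0.000713). It also passed without trap supernatant replicate 3 for Itgav (0.00284) and Itgal (0.0431), without untreated replicate 3 for Itgal (0.0114) and without trap supernatant replicate 2 for Itga5 (0.042). Mast cell markers varied too between batches, at 271 to 300.5 CPM with either supernatant in batch 1, 1004 to 1744 CPM in batch 2 and 467 to 2416 CPM in batch 3, and the summed level of 14 neutrophil markers was 380.1 to 425 CPM in untreated batch 3 (339 to 368 CPM with either supernatant) against 118 to 177 CPM in untreated batches 1 and 2. The part of either in these differences was not tested.

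The starting level of most subunits depended on the batch. Between the untreated libraries of batches 2 and 1, 7 of the 10 passed, 3 higher and 4 lower in batch 2, against 24.1% of all genes (10.9% higher and 13.2% lower). Itga5 was higher by 0.85 ± 0.12 (edgeR's quasi-likelihood test, adjusted p = 7.28e-05), Itgav by 0.78 ± 0.16 (0.00406) and Itga6 by 0.37 ± 0.10 (0.0132). Lower in batch 2 were Itgb3 at -0.85 ± 0.15 (adjusted p = 0.000539), Itgam at -0.72 ± 0.07 (6.42e-07), Itgb2 at -0.55 ± 0.07 (1.49e-05) and Itgb5 at -0.26 ± 0.07 (0.0122). The αv chain and its β partners did not move together: Itgav was higher while Itgb3 and Itgb5 were lower. Of the leukocyte integrins, Itgb2 and Itgam were both lower and Itgal gave -0.01. Differences between classes of receptor were not tested. Itga4 (-0.37 ± 0.16), Itgal (-0.01 ± 0.09) and Itgb1 (-0.04 ± 0.08) did not pass in the model of all libraries. Itga4 did pass with DESeq2 (adjusted p = 0.0475) and, in edgeR, with no filter on low counts (0.000388). It also passed there without trap supernatant replicate 3 (0.0149) or mast cell supernatant replicate 3 (0.0362). The calls of Itga6 and Itgb5 were lost when any 1 of the 4 untreated libraries of these batches was left out (0.37 to 0.38 and -0.27 to -0.25).

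Between the untreated libraries of batches 3 and 1 none of the 10 passed, which is near the share of 7.64% of all genes that did. With so few libraries a batch, this does not show that the batches were alike. The 95% intervals were -0.37 to -0.08 for Itgam and 0.00384 to 0.708 for Itgav. Itgam came nearest to the threshold at -0.22 ± 0.07 (edgeR's quasi-likelihood test, adjusted p = 0.0588). It passed with DESeq2 (0.02), with limma-voom (0.0427) and without mast cell supernatant replicate 4 (0.0386). Without trap supernatant replicate 3, Itgav passed at 0.36 (0.03). Between batches 3 and 2, 5 passed against 30.5% of all genes (15.8% higher and 14.7% lower in batch 3): Itgb3 (0.86 ± 0.15, adjusted p = 0.000426), Itgam (0.50 ± 0.07, 3.66e-05) and Itgb2 (0.41 ± 0.07, 0.00023) were higher in batch 3, and Itga5 (-0.73 ± 0.12, 0.000235) and Itga6 (-0.36 ± 0.10, 0.0134) lower. The Itga6 call was lost without untreated replicate 2 (-0.37), 5 (-0.35) or 6 (-0.30). Itgav, at -0.43 ± 0.16 (adjusted p = 0.0663), passed with DESeq2 (0.0161), with limma-voom (0.0304) and without trap supernatant replicate 3 (0.00284) or mast cell supernatant replicate 3 (0.00866). Itga4 (0.36 ± 0.16, 0.107) passed without the same 2 libraries (0.0154 and 0.03535), and Itgb5 (0.16 ± 0.07, 0.107) without untreated replicate 3 (0.0349). With no filter on low counts Itgav and Itga4 passed too (3.7e-06 and 0.000778). Per length, Itga5 exceeded Itgb1 and Itgav exceeded Itgam in batch 2, and both orders were the other way round in batches 1 and 3. Stromal markers were high in batch 2, as given above, and osteoclast markers were low there (summed level 638 to 674 CPM untreated against 1243 to 1318 CPM in batches 1 and 3). Of 14 macrophage markers 9 were lower there than in batch 1, beside 13.2% of all genes. In batch 3 against batch 2, 11 were higher and 1 lower, beside 15.8% and 14.7% of all genes. What these values contribute to the subunits' levels was not tested.

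**Figure D5:**
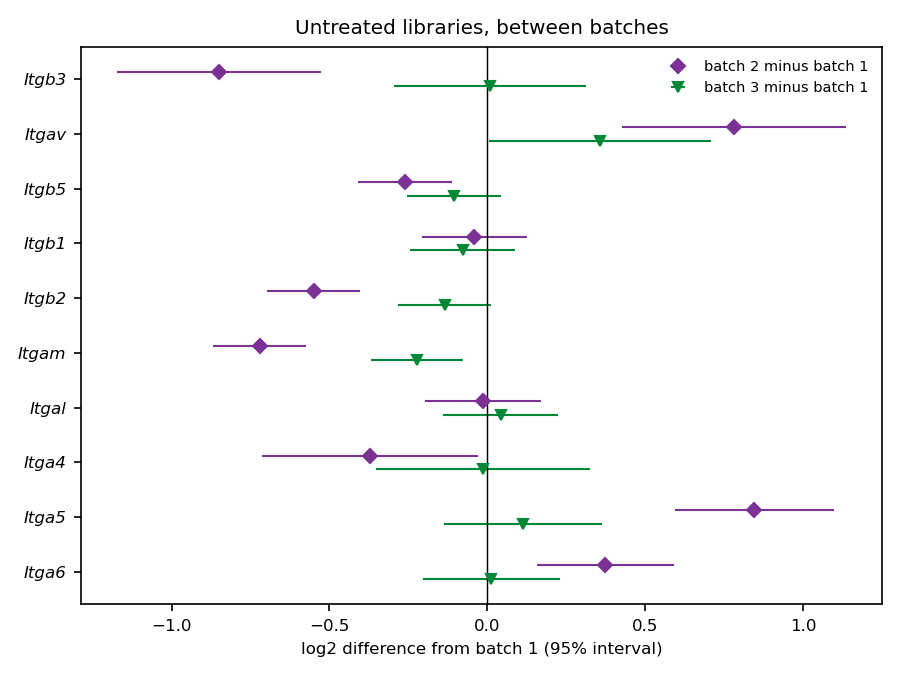
Log2 difference of untreated libraries of batch 2 (diamonds) and batch 3 (downward triangles) from those of batch 1, with 95% intervals, for the 10 subunits (2 libraries a batch). In batch 2 Itga5 (0.85) and Itgav (0.78) lie farthest above 0 and Itgb3 (-0.85) and Itgam (-0.72) farthest below, while no batch 3 value passed the test.

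The rest of the integrin family was taken from a list of 16 further subunits, of which 9 had enough counts to test. None of the 9 passed with either supernatant, against 4.79% and 1.72% of all genes; the median difference was 0.00 with mast cell and 0.10 with trap supernatant. Itgax, the αX chain also known as CD11c, ranged widely with batch (174.5 to 655 CPM untreated), and its differences with batch in the model were -0.12 ± 0.05 with mast cell and -0.06 ± 0.06 with trap supernatant. Itgb7, the β7 partner of α4, ranged from 55.2 to 108 CPM untreated, from 70.2 to 119 CPM with mast cell supernatant and from 71.9 to 117 CPM with trap supernatant. Itgax was lower in untreated batch 2 than in batch 1 by 1.89 ± 0.09 on the log2 scale (adjusted p = 1.06e-10), more than its relative Itgam, and Itgb7 was higher by 0.87 ± 0.07 (1.45e-07). Itga2b, the αIIb chain that joins β3 in platelets and their precursors, stood at 0.695 ± 0.351 CPM untreated, 3.26 ± 3.60 CPM with mast cell supernatant and 6.39 ± 6.47 CPM with trap supernatant, and did not pass (adjusted p = 0.136 and 0.109); mast cell markers rose in the same libraries, and their part was not tested. Itgb8, the β8 partner of αv, stood at no more than 5.68 CPM in any library and was the 1 of the 9 whose response differed between batches (joint test, adjusted p = 0.00398): its within-batch differences were 1.15 and 1.37 (mast cell and trap supernatant) in batch 1, 0.71 and -1.07 in batch 2 and -1.93 and -1.645 in batch 3. Itgb6 had no count in any library.

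Proteins that bind integrin tails or pass on their signals were followed as a list of 37 genes, of which 35 were tested. With mast cell supernatant 4 rose and 3 fell, and with trap supernatant 2 rose and 1 fell, beside 4.79% and 1.72% of all genes that passed. This list and those below were drawn up with earlier results of the same contrasts known, so their counts and p-values are not independent evidence. Cass4, a scaffold of the Cas family at focal adhesions, had the largest rise, from 5.68 ± 2.15 CPM (SD, n = 6) to 16.0 ± 3.73 (n = 5) and 13.7 ± 2.16 CPM (n = 3), by 1.502 ± 0.12 and 1.31 ± 0.14 on the log2 scale (adjusted p = 2.02e-06 and 0.000104). Cytip, which binds cytohesin-1 and restrains adhesion through β2 integrins, rose by 0.73 ± 0.08 and 0.64 ± 0.09 (adjusted p = 4.2e-05 and 0.00122). Its partner Cyth1, cytohesin-1, fell by 0.48 ± 0.09 with mast cell supernatant (adjusted p = 0.00592, lost with the replicate block at -0.42) and gave -0.35 ± 0.11 with trap supernatant (0.125). The response of Cyth1 differed between batches (joint test, adjusted p = 0.0177). Its within-batch differences with mast cell and trap supernatant were -0.34 and -0.10 in batch 1, -0.24 and -0.21 in batch 2 and -0.78 and -0.76 in batch 3. Tns3, a tensin that links β tails to actin, fell by 0.41 ± 0.05 and 0.32 ± 0.06 (adjusted p = 9.65e-05 and 0.0068), from 905 ± 45.1 CPM untreated to 678 ± 36.6 and 727 ± 41.8 CPM. The trap value for Tns3 did not pass with the replicate block (-0.32) or without trap supernatant replicate 1 (-0.29). Smaller calls with mast cell supernatant were those of Apbb1ip, the talin recruiter RIAM (0.22 ± 0.06, adjusted p = 0.0391), and of the kinase Syk (-0.25 ± 0.06, 0.0403). They were lost in 8 and 11 of the 14 fits that left out 1 library, with the replicate block (0.17 and -0.23) and without batch 2 (0.22 and -0.22), among other settings. The median of the 35 was 0.05 and 0.09.

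Integrin ligands made by the cultures were a list of 30 genes with 24 tested. Of these, 1 rose with mast cell supernatant and none with trap supernatant, and none fell (4.79% and 1.72% of all genes passed). The 1 was Col4a1, a basement membrane collagen, by 0.42 ± 0.10 (adjusted p = 0.0277), a call lost in 5 of the 14 fits that left out 1 library (0.33 to 0.49 over the 14), with limma-voom (0.38), with the replicate block (0.29), without batch 1 (0.31) and without batch 2 (0.48), and turned to -0.07 with no batch term. Between untreated batches 2 and 1, 12 of the 24 were higher in batch 2 and 1 lower, beside 10.9% and 13.2% of all genes, with a median of 1.37 on the log2 scale against 0.01 over all genes. The summed stromal markers and Itga5, Itgav and Itga6 were higher in that batch too, while Itgb3 (-0.85) and Itgb5 (-0.26) were lower. Itgb1 (-0.04) and Itga4 (-0.37) did not pass. A link between ligands and subunits was not tested. Among the ligands, Col4a1 was higher in batch 2 by 3.01 ± 0.20 (adjusted p = 1.42e-08).

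The genes whose pattern came nearest to that of Itgb3 were found by the mean absolute difference in log2 CPM over the 14 libraries, after subtraction of the untreated mean of each batch, among 9770 genes with at least 5 CPM. The nearest were Spsb1, a substrate adaptor of a ubiquitin ligase (0.152), Atp2b4, a plasma membrane calcium pump (0.180), Pdgfa, a growth factor (0.180), and Cx3cr1, the fractalkine receptor (0.194). They were followed by Tgfbr1, a TGF-β receptor (0.238), Cspg4, a membrane proteoglycan (0.252), AU020206 (0.252) and Gpr84, a fatty acid receptor (0.258). Over all genes the median distance was 0.809 and the 1st percentile 0.528. Cx3cr1 stood at 113 CPM untreated, 39.7 CPM with mast cell supernatant and 57.4 CPM with trap supernatant, and Tgfbr1 at 346, 160 and 206 CPM. As these genes were picked for their likeness, no test is given.

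Lists of other cells that carry integrins gave these counts. Of 22 mast cell markers 20 were tested, and 12 rose with mast cell and 10 with trap supernatant, beside the 4.79% and 1.72% of all genes. The mast cell protease Cma1 ran from 14.5 to 276.5 CPM with mast cell and 15.4 to 413 CPM with trap supernatant, and the protease Cpa3 from 11.5 to 214 and 12.6 to 340.2 CPM. Over the 6 untreated libraries Cma1 had 1 count and Cpa3 2 counts. The receptor Kit ran from 3.35 to 121 and 3.41 to 171 CPM (untreated 0.137 to 0.616 CPM). Fcer1a, a chain of the IgE receptor, ran from 1.17 to 15.55 and 1.89 to 28.7 CPM. Mcpt4 and Tpsb2, with no untreated count, reached 335 and 290.3 CPM with mast cell supernatant. With the replicate block Cma1, Cpa3 and Fcer1a lost both calls, and Mcpt4 and Tpsb2 the one with mast cell supernatant. Of 6 tested megakaryocyte and platelet markers 1 rose with each supernatant (Pf4 with mast cell supernatant, a call lost in 9 of 14 fits that left out 1 library, and Gp1ba with trap supernatant, lost in 4 of 13, both also lost with the replicate block), and of 8 tested osteoclast markers 1 rose with each (Dcstamp, by 0.31 ± 0.06 and 0.44 ± 0.06; both calls were lost with the replicate block, at 0.32 and 0.45). No tested neutrophil (13), dendritic cell (2), lymphocyte (1) or stromal and endothelial (6) marker passed with either supernatant. Among 14 macrophage markers Mertk, a receptor for the uptake of dying cells, fell with both (-0.90 ± 0.15 and -0.83 ± 0.17) and Cd14 rose with mast cell supernatant (0.39 ± 0.10). The Mertk call with trap supernatant was lost in 8 of 14 such fits and the Cd14 call in 11 of 14. With the replicate block all 3 were lost (Mertk -0.92 and -0.81, Cd14 0.42). Both responses differed between batches (joint test, adjusted p = 0.0348 for Mertk and 0.01055 for Cd14). In batches 1, 2 and 3 Mertk gave -0.48, -0.98 and -1.23 with mast cell and -0.33, -1.35 and -0.88 with trap supernatant. Cd14 gave 0.73, 0.38 and 0.04 with mast cell supernatant. The defining macrophage genes Csf1r, Adgre1 and Cd68 did not pass with either, at -0.15 to 0.08.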

How the data were processed

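The authors deposited whole-number counts of reads per gene for 14 libraries, made with featureCounts 2.0.0 on GRCm38, per the submitters' processing notes; the library kit marks strand, per the labels' protocols, and for the aligner, annotation release and strand setting the sources used here give nothing. Symbols (47224 of 47937 identifiers), coordinates and exon lengths came from GENCODE for GRCm38. The filter filterByExpr of edgeR 4.0.16 (R 4.3.3) left 13061 genes, which were scaled by TMM and fitted with group and batch over all libraries by the robust quasi-likelihood method; adjusted p-values are Benjamini-Hochberg over all 13061 genes. Contrasts of batches and the supernatant by batch test came from a model of 6 means (batch by untreated or any supernatant). Standard errors follow from the F statistic. Within-batch differences used log2 CPM with a prior count of 1. DESeq2 1.42.0 and limma 3.58.1 were run as alternatives, and the scripts were tested on simulated data.

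The members and lists were chosen with earlier results of these data known. The genes named were all members, per list the 3 steepest rises and falls past the threshold, defining markers, and the 8 genes most like Itgb3; some further genes are named as examples, chosen after their values were seen. Replicates 1 to 3 carry batch labels 1 to 3 in each group. After group means were removed, the 9 same-numbered pairs correlated at 0.298 to 0.71 and 18 other pairs at -0.592 to 0.173, so the numbers mark a shared batch. A fit of replicates 1 to 3 with the replicate number as a block was added. In these libraries that block is the same as batch. The fit is thus the model of group and batch on fewer libraries, and adjusts for no further pairing. No 2 libraries of the same group agreed within sampling noise (chi-square per degree of freedom at least 1.77). Without a stated strand setting, reads of overlapping genes on opposite strands cannot be told apart; Cerkl overlaps Itga4 in this way, with 295 counts over all libraries against 44935 for Itga4.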

Additional observations from a re-analysis of the deposited data

Results flagged for a closer look

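In the untreated and mast cell supernatant groups, 20 sets of values were tested (10 genes, 2 groups), and in 3 an extreme library stood apart from the rest by Dixon's criterion. For independent draws from 1 normal distribution, chance meets it in about 1 of 20 sets. That rate does not hold here, since each set pools 3 batches and the genes share libraries. The lowest mast cell supernatant library was replicate 2, the only one of batch 2 in that group, for Itgb5 at 226.1 CPM (gap over range 0.779, critical value 0.71) and for Itgam at 193.5 CPM (0.713). The untreated libraries of batch 2 were low in both genes too. The highest untreated library for Itgal was replicate 6 at 65.66 CPM (gap over range 0.639).

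The response of Itga4 to any supernatant gave a contrast of -0.8155 ± 0.2028 on the log2 scale between batches 3 and 1 (edgeR's quasi-likelihood test, adjusted p = 0.02629). This contrast was added after the data were seen, so its p is not independent evidence. The joint test over 3 batches gave an adjusted p of 0.0653 and did not pass.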

How the results depend on the processing

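Counts of all genes past the threshold moved by more than 1.5 times under several alternatives. For mast cell supernatant against untreated (625) they were 62 with no batch term, 84 with the replicate block and 231 without batch 2, with 1, 2 and 2 members of the integrin list in place of 4. For trap supernatant (224) they were 409 with DESeq2, 15 with no batch term, 36 with the replicate block, 116 without batch 1 and 88 without batch 2; 0, 1 and 1 of 10 subunits passed with no batch term, with the block and without batch 2. The block fit is the model of group and batch on 9 of the 14 libraries, since replicate number and batch are the same there. For trap against mast cell supernatant (0) they were 11 with DESeq2, 22 with only the groups compared and 1 without batch 3. The batch interaction gave 1498 with no filter (3 members; 1 with DESeq2 and with limma-voom), and untreated batch 3 against 1 gave 1625 with no filter (1 member; 1 with DESeq2 and with limma-voom). The cause was not tested.

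Leaving out 1 library gave 449 to 751 genes for mast cell supernatant, 97 to 280 for trap supernatant, 0 to 3 between supernatants, 235 to 1175 for the interaction, and 1757 to 3561, 304 to 1430 and 2418 to 4134 for untreated batches 2 against 1, 3 against 1 and 3 against 2; members numbered 3 to 5, 1 to 3, 0 to 0, 0 to 3, 5 to 8, 0 to 1 and 4 to 7. Itgb3 kept its call against untreated in every fit but trap supernatant with no batch term (-1.24). As Itgb3 was listed with these contrasts known and the fits reuse the same libraries, this is a description and not independent evidence.

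Some differences changed sign. With mast cell supernatant Itgb1 became -0.0636 with the replicate block and -0.0391 without batch 1, and Itga4 0.0651 without batch 3. With trap supernatant Itgb1 became -0.0198 with the block and -0.0102 without batch 3, Itgb2 -0.00532 with no batch term and -0.0263 without batch 2, and Itga6 0.00735 and 0.0837 without batches 1 and 2. Between supernatants Itgb1 became -0.00269 with no batch term and -0.0796 without batch 3, Itgb2 0.0312 without batch 1, Itgal -0.0127 and Itga4 -0.0735 without batch 3, and Itga6 0.0121 without batch 2. Col4a1 with mast cell supernatant became -0.0667 with no batch term.

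Leaving out 1 library turned signs as well. The range was -0.0223 to 0.0448 for Itgb1 with mast cell supernatant. With trap supernatant it was -0.0408 to 0.0492 for Itgb1, -0.0437 to 0.0472 for Itgb2 and -0.111 to 0.0872 for Itga6. Between supernatants it was -0.0479 to 0.0404 for Itgb1, -0.0704 to 0.0102 for Itgb2 and -0.184 to 0.0104 for Itga6. Between untreated batches 2 and 1 it was -0.0322 to 0.00446 for Itgal. Between batches 3 and 1 it was -0.0275 to 0.0462 for Itgb3, -0.0772 to 0.157 for Itgal, -0.138 to 0.108 for Itga4 and -0.0481 to 0.0767 for Itga6, and between batches 3 and 2 -0.0773 to 0.00554 for Itgb1 and -0.0615 to 0.17 for Itgal. None of these values passed the threshold in the model of all libraries.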
